A study of Homo sapiens with 28 samples.

Results

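The growth arm of a pooled CRISPR knockout screen in p53 KO cells of U-2 OS, a human osteosarcoma line, was examined by setting 3 libraries taken after 96 h without drug (Untreated A, B and C) against 3 libraries taken at 0 h (T0 A, B and C). These are 6 of the 28 samples in the series. All 109367 guides were used, and the 19044 genes with 3 or more guides were summarised, out of 19050 gene names. Every cell carried the p53 knockout and the guide library. The Untreated cells differed from T0 in time alone as labelled, although the series' design text speaks of DMSO as the comparator of etoposide. The screen had 18 libraries in all: the same 2 states in p53 WT cells, and both genotypes after 96 h in 5 µM etoposide. The labels do not say whether the p53 KO line is 1 clone, how the knockout was made, how many cells carried each guide or whether Cas9 was active throughout. The labels do not state whether A, B and C were grown apart, and the p-values here cover only the scatter among these libraries, which may be technical.

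In such a screen each cell receives a guide RNA that directs Cas9 to cut 1 gene, and the guide also serves as a barcode in genomic DNA. When loss of the gene slows division or kills the cell, its guide takes a smaller share of the population over time. When loss speeds division, the share grows. p53 is the transcription factor that halts or kills cells after DNA damage, and in its presence the Cas9 cut itself can slow growth, so p53 KO cells are a common background for screens of this kind.

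No RNA was sequenced from p53 KO cells, and guide counts do not measure p53 itself. The RNA of the p53 WT parent line at T0 (2 libraries) was used as a check of the labelled cell type. It held COL1A1 at 3384 and 3616 TPM, a level scaled for gene length and library size, SPARC at 1211 and 1222 TPM and RUNX2 at 13.8 and 14.3 TPM, which are genes of the bone lineage, while IBSP was at 0 in both and BGLAP at 0.465 and 1.2 TPM. The T cell marker CD3E was at 0, the leukocyte marker PTPRC at 0.239 and 0.458 TPM, and the epithelial gene KRT19 at 0.0862 and 0 TPM. Of the other epithelial genes, EPCAM was at 2.14 and 3.88 TPM and CDH1 at 2.95 and 3.55 TPM. The bone lineage gene COL1A2 was at 0.562 and 0.555 TPM.

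The 6 p53 KO libraries held between 33.3 and 48.2 M counts, and the median guide had between 273 and 395 counts. Changes over 96 h were small. The guides as a whole had a median log2 fold change of 0.00 (SD 0.18), and 1.19% of them lay below −0.5. The 999 non-targeting guides, which match no gene, had a median of 0.05 (SD 0.12), with 0 called lower and 1 called higher. Their share of all counts was 1.58% in each T0 library and 1.63%, 1.64% and 1.63% in Untreated A, B and C, with no overlap between the states. The 2164 guides to olfactory receptor genes had a median of 0.03, and the 258 guides to genes of chromosome Y had a median of 0.04. Both sets therefore lay between the non-targeting guides and the median of all guides.

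Counts of a gene's guides were summed, edgeR's quasi-likelihood test was applied to the sums, and a gene was called at a Benjamini-Hochberg adjusted p under 0.05. Of the 19044 genes, 588 (3.09%) were called lower after 96 h and 80 (0.42%) were called higher. At guide level, 607 of the 109367 guides were called lower (0.555%) and 59 higher (0.0539%). The 3 T0 and 3 Untreated libraries did not overlap for 3468 genes (18.2%), and 639 of the 668 called genes were among these. The split between losses and gains depended on the scaling: with counts scaled to the non-targeting guides, 1570 genes were called lower and 13 higher. Leaving out 1 library lowered the number of called genes most without KO T0 replicate B (437) and KO T0 replicate A (441), and the number of called guides without KO T0 replicate B (338), A (355) and C (390).

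The fall of a called gene was modest. The median over the 588 was −0.24, which left its guides at 84.5% of their T0 share, and the smallest called fall was −0.15. There were 270 genes below −0.25 and 33 below −0.4. The standard error of a gene's log2 fold change had a median of 0.05. Of the 588 genes, 295 had no guide that was called lower alone, 207 had 1, 86 had 2 or more and 18 had 3 or more. All guides pointed down for 277 of them. The guides carry names of 2 series, HGLibA and HGLibB, and 560 of the 573 lower genes with guides in both had a negative mean in each. Over all genes 26.6% did, but the call used the sum of both series, so the figure only describes the called genes.

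The largest losses belonged to enzymes and machines that dividing cells use constantly. GAPDH, a glycolytic enzyme, had the lowest mean over guides. Its summed guides stood at 57.3, 58 and 56.2 CPM, counts scaled to library size, in T0 A, B and C and at 42.8, 38.4 and 38.5 CPM in Untreated A, B and C. Every Untreated library was below every T0 library, and the log2 fold change was −0.52 (SE 0.06, adjusted p = 4.73e-11). GPX4, which reduces lipid hydroperoxides in membranes and so holds off ferroptosis, stood at 57.7, 53.5 and 51.4 CPM at T0 and at 39.4, 34.9 and 39.2 CPM after 96 h. Its groups did not overlap either, and it fell by 0.52 (SE 0.06, adjusted p = 4.86e-11). All 5 of its guides were negative, from −0.97 to −0.34. LONP1, the protease that clears damaged proteins from the mitochondrial matrix, went from 54.5, 49.7 and 48.6 CPM to 37.4, 37.1 and 33.6 CPM, again without overlap (−0.50, SE 0.06, adjusted p = 2.11e-10).

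HYPK, a small partner of the N-terminal acetyltransferase NatA, was also lower. Its RNA in the p53 WT parent line at T0 was at 0.192 TPM. Its guides stood at 62.1, 62.5 and 61.2 CPM at T0 and at 44.9, 45.4 and 43.8 CPM after 96 h, a fall of 0.47 (SE 0.05, adjusted p = 4.73e-11) shared by 6 of 6 guides. Those guides ran from −1.36 to −0.08, and their median had an adjusted p of 0.123 by limma. Of the 15 lowest genes, GPX4 (0.0704), EIF6 (0.184), POLRMT (0.229) and TP53RK (0.488) also lost the call by that test, and the others kept it. POP5, a protein of the RNase P and MRP complexes that trim tRNA and rRNA precursors, held the most depleted of all guides, at −1.75. That gene as a whole fell by 0.44 (SE 0.06, adjusted p = 1.54e-08), and its 6 guides ran from −1.75 to 0.09. GAPDH, HYPK, SRP14 and POP5 therefore each combined guides that fell by more than 1 on the log2 scale with guides near or above 0. EIF6, a factor in the maturation of the large ribosomal subunit, stood at 40.9, 38.5 and 40 CPM at T0 and at 29.5, 29.9 and 29.4 CPM after 96 h (−0.43, SE 0.07, adjusted p = 1.31e-06).

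The other genes among the 15 lowest covered several cell functions. TP53RK fell by 0.42 and ELP5 by 0.31; they belong to complexes that modify tRNA. The Golgi GTPase ARFRP1 fell by 0.39 and the endosomal sorting protein VPS25 by 0.36. POLRMT, the mitochondrial RNA polymerase, fell by 0.50, and GMPPB, which makes GDP-mannose for glycosylation, by 0.50. The kinetochore protein SPC24 fell by 0.47, the signal recognition particle protein SRP14 by 0.38 and C9orf114 by 0.30. VPS25 had 5 of 5 guides negative, from −0.78 to −0.21, and none of them was called alone. The largest summed fall of all, chosen after its value was seen, was that of CAPZB, the beta subunit of the actin capping protein. Its counts went from 42.7, 44.4 and 40.7 CPM to 27.7, 27.9 and 28.9 CPM (−0.60, SE 0.06, adjusted p = 4.68e-12).

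**Figure D1:**
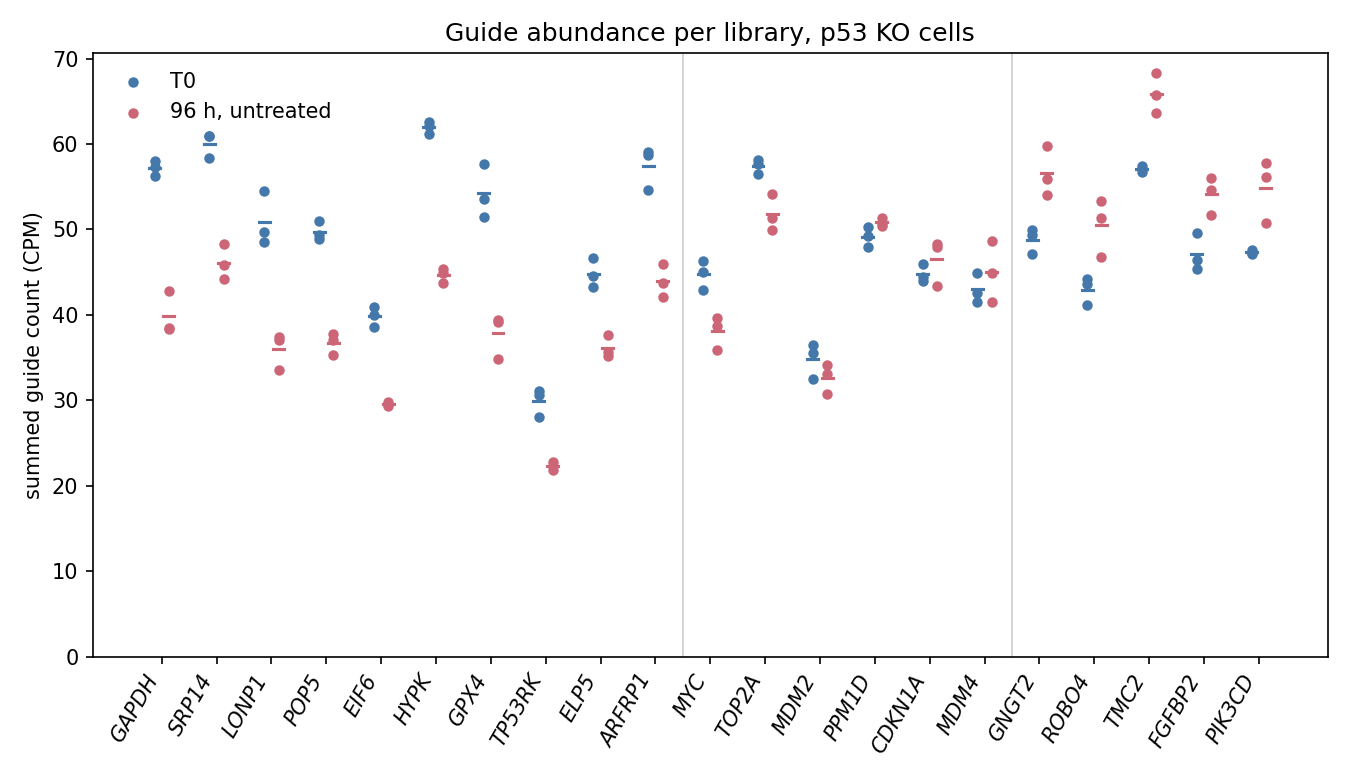
Summed guide abundance in CPM for 21 genes (x axis) in each of the 3 T0 libraries (blue) and 3 Untreated libraries (red) of p53 KO cells; short bars are means of 3. The 10 genes on the left have Untreated points below all T0 points (GAPDH 38.4 to 42.8 against 56.2 to 58 CPM), and the 5 on the right are higher after 96 h. Absence of overlap was required in choosing the genes on both sides. The 6 genes in the middle (MYC, TOP2A, MDM2, PPM1D, CDKN1A and MDM4) lie closer together or overlap.

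**Figure D2:**
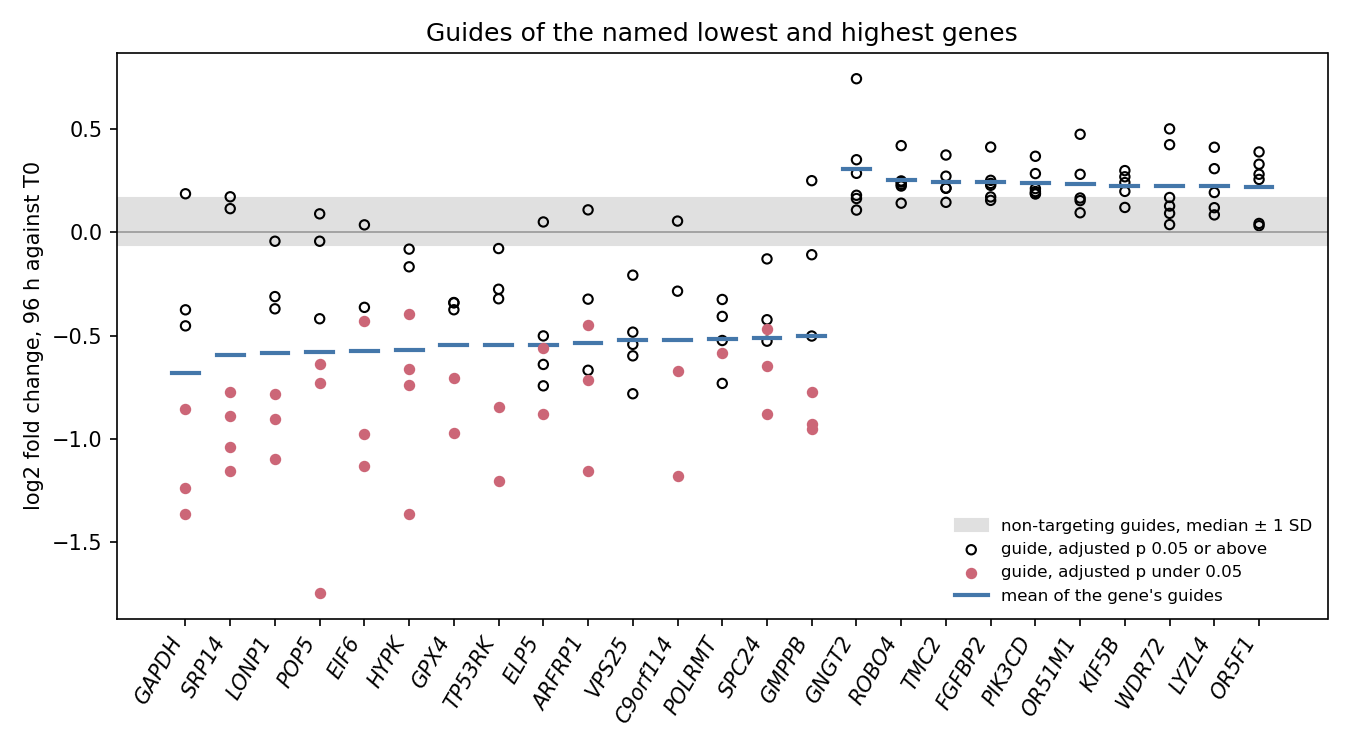
Log2 fold change of every guide (96 h against T0) for the 15 lowest and 10 highest named genes. Filled points are guides called alone, blue bars are the mean over guides, and the grey band is the median of the non-targeting guides ± 1 SD; among the lowest genes guides reach −1.75 (POP5), while no guide of the 10 highest genes was called alone.

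Many genes of protein synthesis were called lower. The cytosolic ribosome had 12 of 45 large-subunit genes and 10 of 32 small-subunit genes called lower, none higher, with medians of −0.18 and −0.16 against 0.00 over all genes tested. RPL13A fell by 0.35 (SE 0.07), from 29.4, 28.8 and 30.7 CPM to 22.6, 23.6 and 23.6 CPM. RPS19 fell by 0.27 (SE 0.06), and RPS24 by 0.26 (SE 0.06) with 6 of 6 guides negative. Of the translation factors, 10 of 33 were called lower; EIF2B5, part of the factor that recharges eIF2, fell by 0.28 and the elongation factor EEF2 by 0.30. The large-subunit count was the least steady of these, at 4 without KO T0 replicate A. The small-subunit count was lowest at 7 without KO T0 replicate C, and the translation factor count at 6 without KO Untreated replicate B.

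The enzymes that load amino acids onto cytosolic tRNAs had the highest share of losses together with the signal recognition particle, 10 of 20 and 4 of 8 genes. YARS, the tyrosyl-tRNA synthetase, went from 53.5, 52.1 and 50.1 CPM to 39.4, 41.1 and 37.8 CPM, without overlap (−0.40, SE 0.05, adjusted p = 6.02e-08). VARS fell by 0.36 and DARS by 0.29. Among the particle's proteins, which target secreted proteins to the endoplasmic reticulum, SRP9 fell by 0.30 and SRP14 by 0.38. tRNA processing and modification contributed 8 of 21 genes, with POP5, TP53RK and ELP5 at the front and ELP3 at −0.29. With any 1 library left out, between 8 and 10 synthetases, 3 and 4 particle genes and 7 and 8 tRNA genes were called.

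Machinery of mitochondrial gene expression was also among the losses. The mitochondrial ribosome had 16 of 47 large-subunit genes called lower and 3 of 29 small-subunit genes, with medians of −0.11 and −0.10; the difference between the subunits was not tested. With non-targeting scaling these counts were 22 and 10. MRPL39 went from 61.3, 58.7 and 60.2 CPM to 43.2, 42.9 and 41.2 CPM (−0.50, SE 0.05, adjusted p = 4.68e-12), and all 5 of its guides were negative. MRPL33 fell by 0.50 and MRPL34 by 0.38, while the small-subunit protein MRPS12 fell by 0.32. Mitochondrial tRNA synthetases gave 4 of 17, with SARS2 at −0.37 and 6 of 6 guides negative. Proteases and chaperones of the organelle gave 7 of 22, among them LONP1, the chaperonin HSPE1 (−0.46) and the processing peptidase PMPCA (−0.36). Without KO T0 replicate A the mitochondrial ribosome counts were 10 and 1.

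The respiratory complexes also had members called lower. Complex I had 3 of 37 genes called lower (8.11%, median −0.04), against 3.09% over all genes. Complexes II, III and IV had 5 of 31 (median −0.07), and the ATP synthase 4 of 15 (median −0.07). ATP5I fell by 0.35 (SE 0.06), ATP5B by 0.27 and ATP5A1 by 0.24, and UQCRC1 of complex III by 0.25. By limma on the median over guides these genes had adjusted p of 0.877, 0.0657, 0.295 and 0.49, in that order. No ATP synthase gene was called lower that way. The 3 complex I calls were NDUFAB1, NDUFB2 and NDUFS8, and NDUFAB1 is also the mitochondrial acyl carrier protein. NDUFB2 and NDUFS8 were not robust: without KO Untreated replicate A the adjusted p of NDUFB2 was 0.173, and without KO T0 replicate A that of NDUFS8 was 0.334. The complex II, III and IV count was lowest at 2, without KO T0 replicate B, KO T0 replicate C or KO Untreated replicate B. Whether the share of complex I differs from that of the mitochondrial ribosome was not tested.

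Glycolysis had 6 of 23 genes called lower, spread from the second step of the pathway to the making of phosphoenolpyruvate. GPI fell by 0.23, ALDOA by 0.33, TPI1 by 0.25, GAPDH by 0.52, PGAM1 by 0.25 and ENO1 by 0.22. Members that were not called included HK1 (−0.02), HK2 (−0.01), PFKL (0.03), PFKP (0.09), LDHA (0.02) and LDHB (−0.03). PGK1 was at −0.05. The assembly of iron-sulphur clusters gave 5 of 20, with FAM96B at −0.49 and ISCA2 at −0.46, where 6 of 6 guides were negative. Of the 22 genes for lipid peroxidation and selenoproteins, GPX4 and SLC3A2, a subunit of the cystine importer, were called (9.09%, against 3.09% over all genes). SLC3A2 (−0.24, adjusted p = 0.0148) had an adjusted p of 0.0898 without KO T0 replicate C. It was 0.0636 without KO Untreated replicate A and 0.0729 without KO Untreated replicate B. The glycolysis count was lowest at 4, without KO T0 replicate B or KO Untreated replicate A.

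DNA replication contributed 11 of 52 genes (median −0.10). They included 5 of the 6 subunits of the MCM helicase, MCM2, MCM4, MCM5, MCM6 and MCM7 (−0.17 to −0.33), and 3 subunits of the GINS complex that joins it. RFC5, a subunit of the clamp loader, went from 58.2, 56.9 and 56.9 CPM to 40.6, 42.3 and 47.2 CPM (−0.40, SE 0.06, adjusted p = 8.1e-08). MCM3, the remaining MCM subunit, was at −0.05 and not called, and no ORC gene was called. The count was lowest at 7 without KO T0 replicate B.

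In the response to stalled forks, 3 of 18 genes were called lower. PKMYT1, a kinase that holds back CDK1, went from 58.1, 54.6 and 56.6 CPM to 40.7, 44.6 and 40.7 CPM (−0.42, SE 0.06, adjusted p = 2.71e-08). RAD9A, part of the checkpoint clamp, fell by 0.30 (adjusted p = 0.131 without KO T0 replicate A). The checkpoint kinase CHEK1 was at the margin: its log2 fold change was −0.20 with an adjusted p of 0.035, which rose to 0.187 without KO T0 replicate C and passed 0.05 in 4 of the 6 such fits, also without KO T0 replicate B (0.123), KO Untreated replicate A (0.151) and KO Untreated replicate B (0.0782). Homologous recombination and the Fanconi pathway gave 2 of 29 (6.9%, against 3.09% over all genes). These were FANCA (−0.22, adjusted p = 0.0127) and BARD1 (−0.23, adjusted p = 0.0262). FANCA had an adjusted p of 0.0948 without KO T0 replicate B, and BARD1 lost the call in 4 of 6 such fits, up to 0.27 without KO Untreated replicate B. TOP2A, the target of etoposide, was at −0.15 (SE 0.06, adjusted p = 0.205) and not called; with non-targeting scaling it was called, at −0.19 (adjusted p = 0.0297).

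Mitosis contributed 10 of 56 genes. SPC24 went from 40.2, 44.2 and 39.5 CPM to 29.9, 32.4 and 27 CPM, and 6 of 6 guides were negative. The centromere protein CENPW fell by 0.36 and BIRC5, the survivin subunit of the chromosomal passenger complex, by 0.28. CCNA2, the cyclin of S phase and early mitosis, was at −0.31 and was called, whereas CDK1 (−0.04), PLK1 (−0.07), KIF11 (−0.06) and CCNB1 (−0.03) were not. Without KO T0 replicate C or KO Untreated replicate B the count was 6.

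Transcription and splicing were represented by 11 of 27 genes of the 3 nuclear RNA polymerases, 6 of 31 Mediator genes and 13 of 63 spliceosome genes. RNA polymerase III supplied the leading members: POLR3K fell by 0.38, POLR3C by 0.37 and POLR3B by 0.32. MED8 fell by 0.35 with 6 of 6 guides negative. Among splicing factors SART3, which recycles the U6 particle, fell by 0.46 and SNRNP27 by 0.38. Without KO Untreated replicate C the spliceosome count was 6, and without KO T0 replicate C the Mediator count was 3.

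Protein folding and turnover also had members called lower. The CCT chaperonin, which folds actin and tubulin, had 3 of 8 genes called lower (TCP1, CCT2 and CCT4, −0.25 to −0.27), and each of the 3 lost its call in some fit with a library left out, so that 1 to 2 were called there. The highest adjusted p was 0.0951 for TCP1 (without KO T0 replicate A), 0.16 for CCT2 and 0.0807 for CCT4 (both without KO T0 replicate B). The proteasome had 5 of 39 called (median −0.10), but 1 without KO T0 replicate C. Coatomer and the vacuolar ATPase had 1 of 20 (5%, against 3.09% over all genes), ATP6V0C, at −0.42 over 3 guides.

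**Figure D3:**
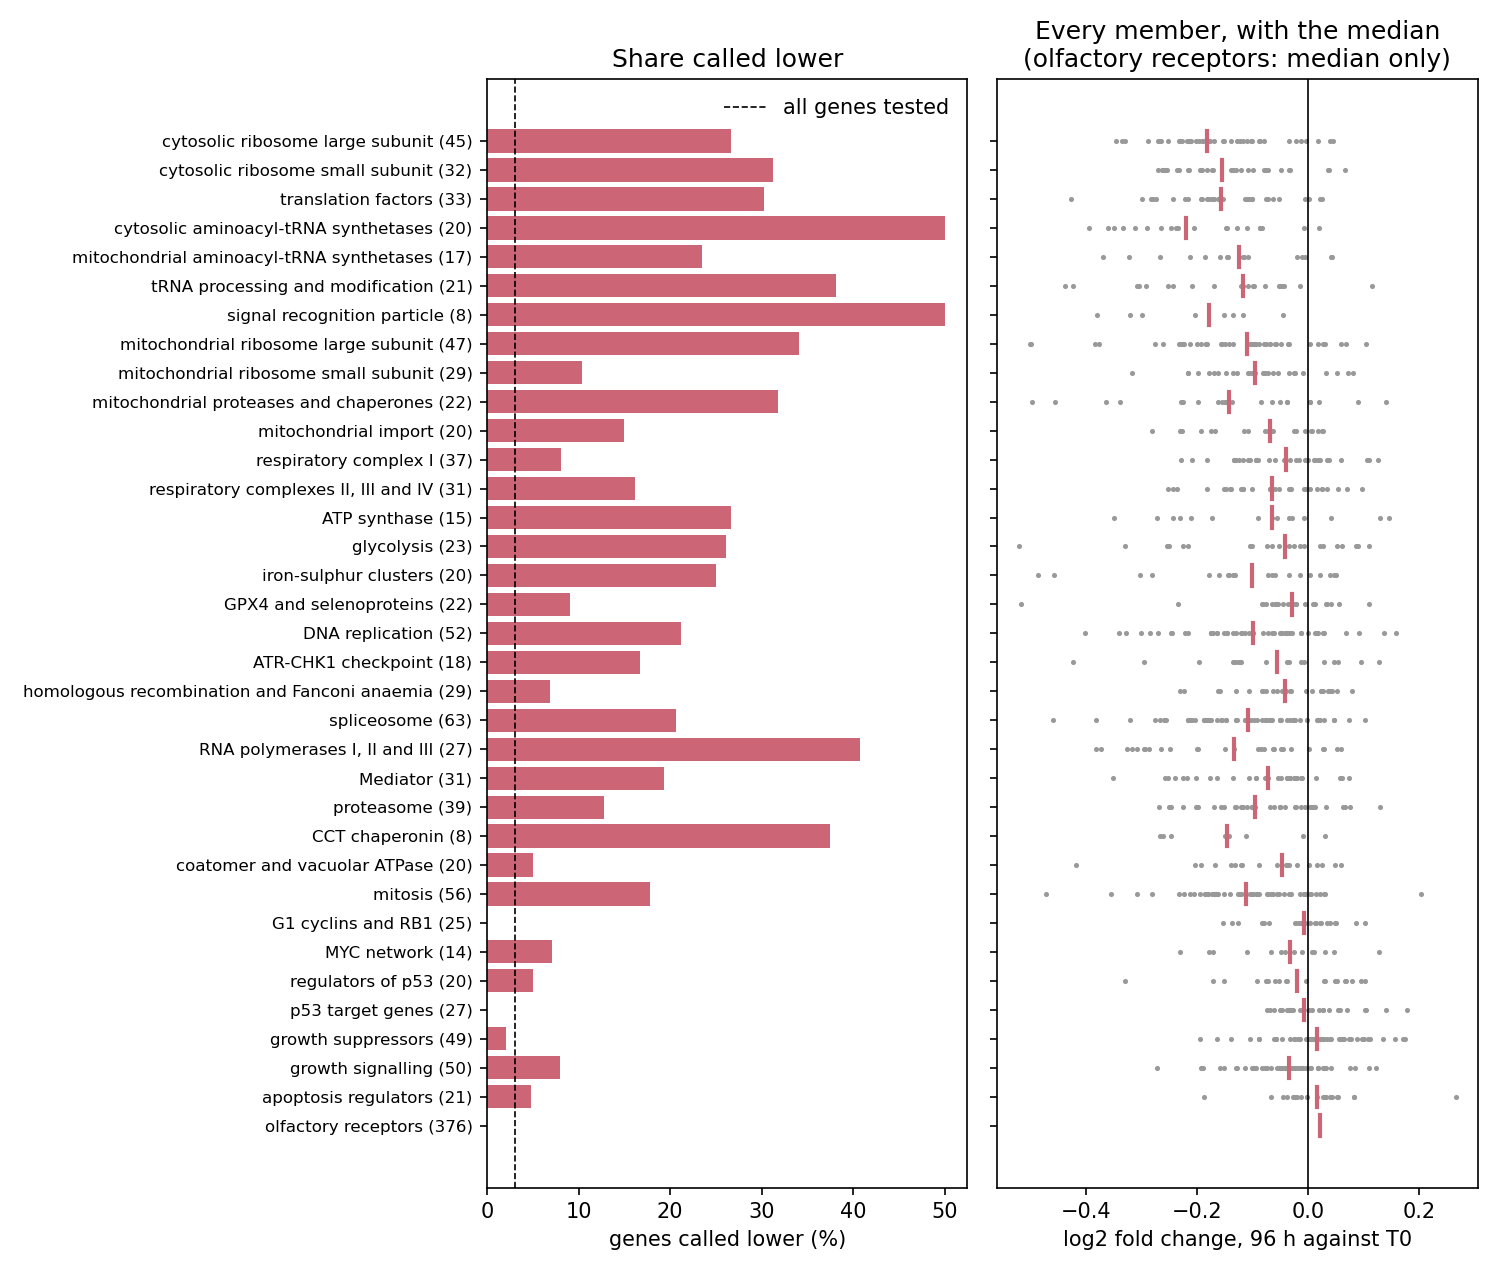
Left, percentage of each gene list called lower in p53 KO cells after 96 h (number of genes tested in brackets; dashed line, 3.09% over all genes). Right, log2 fold change of every list member (grey points) with the list median (red); the shares run from 0% for G1 cyclins, p53 target genes and olfactory receptors to 50% for cytosolic tRNA synthetases and the signal recognition particle.

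Genes of the p53 circuit had medians near 0 in these cells, −0.02 over 20 regulators of p53 and −0.01 over 27 p53 target genes. MDM2, the ligase that destroys p53, stood at 35.6, 32.4 and 36.4 CPM and at 34.1, 33 and 30.8 CPM (−0.09, SE 0.07, adjusted p = 0.596). The p53 inhibitor MDM4 was at 0.07, the phosphatase PPM1D at 0.05 and the cell cycle inhibitor CDKN1A at 0.05, none called. Upstream of p53, ATM was at 0.05, CHEK2 at 0.07, TP53BP1 at −0.08 and USP28 at 0.03. Of the 20 p53 regulators 1 was called lower (5%, against 3.09% over all genes), the ribosomal protein RPL11 (−0.33), which also binds MDM2. Its adjusted p was 0.00344, and 0.0813 without KO Untreated replicate B. HEXIM1 (−0.17, adjusted p = 0.158) and RPL5 (−0.15, adjusted p = 0.253) were not called. With non-targeting scaling 3 regulators were called lower, HEXIM1 (adjusted p = 0.0228) and RPL5 (adjusted p = 0.049) among them.

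None of the 27 p53 target genes was called lower, against 3.09% over all genes, and 1 was called higher, FAS, the death receptor. Its guides stood at 85.7, 86.4 and 84.1 CPM at T0 and at 104, 94.6 and 91.1 CPM after 96 h, without overlap (0.18, SE 0.04, adjusted p = 0.00681). Without KO Untreated replicate A, the highest of these libraries, the adjusted p was 0.174, and without KO T0 replicate C it was 0.0535; with non-targeting scaling it was 0.0533. BAX (−0.04), BBC3 (−0.03) and PMAIP1 (0.03), which carry out p53-driven cell death, were not called. Of 21 apoptosis regulators 1 (4.76%) was called, BCL2L1, the gene of the anti-death protein BCL-XL (−0.19, SE 0.05, adjusted p = 0.00893). All 6 of its guides were negative, and it had an adjusted p of 0.11 without KO T0 replicate B and also without KO Untreated replicate C.

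Of the 14 genes of the MYC network 1 was called lower (7.14%, against 3.09% over all genes). This was MYC itself. MYC, the transcription factor that raises ribosome and nucleotide production, stood at 46.3, 45 and 43 CPM at T0 and at 38.8, 35.9 and 39.6 CPM after 96 h, without overlap. It fell by 0.23 (SE 0.06, adjusted p = 0.00475) with 6 of 6 guides negative, and the adjusted p was 0.0518 without KO T0 replicate A and 0.0765 without KO Untreated replicate B. Its partner MAX was at −0.18 (adjusted p = 0.0964, and 0.00952 with non-targeting scaling). In growth signalling 4 of 50 genes (8%) were called lower, of which RPTOR, the scaffold of mTOR complex 1, was the clearest: 61.1, 66 and 61.4 CPM became 51.7, 51.6 and 52.9 CPM (−0.27, SE 0.05, adjusted p = 2.72e-05). The other calls were ILK, MTOR and FGFR1; MTOR (−0.19, adjusted p = 0.0476) lost the call in 5 of 6 fits with a library left out, up to an adjusted p of 0.26 without KO Untreated replicate B. FGFR1 (−0.16, adjusted p = 0.0408) lost it in 4 of 6, up to 0.281 without KO T0 replicate A, and without that library 1 gene of the list was called.

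None of the 25 genes of G1 cyclins and RB1 was called in either direction, against 3.09% called lower and 0.42% higher over all genes. With non-targeting scaling, however, 2 were called lower, CCND1 (adjusted p = 0.00415) and TFDP1 (adjusted p = 0.00801). CCND1, cyclin D1, was at −0.15 (adjusted p = 0.0737), CDK4 and CDK6 at −0.01 and RB1 at 0.02. CDKN2A, whose RNA was at 0 TPM in the parent line, was at 0.10 (adjusted p = 0.25). Among 49 growth suppressors, 1 was called higher, TAOK1, a kinase upstream of the Hippo pathway (0.17, adjusted p = 0.0173). Also, 1 (2.04%) was called lower, CSK, the kinase that restrains SRC (−0.20, adjusted p = 0.0131). Both were sensitive to a single library, with an adjusted p of 0.16 for TAOK1 without KO Untreated replicate B and 0.309 for CSK without KO T0 replicate C. NF1 (0.06), NF2 (0.02), TSC1 (0.09) and TSC2 (0.06) were not called. LATS2 was at 0.17, and it was not called either.

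The 80 genes called higher gained little: the median was 0.18 and the range 0.14 to 0.27, and 42 of them had every guide positive. The highest named genes by mean over guides were GNGT2, ROBO4, TMC2, FGFBP2, PIK3CD, OR51M1, KIF5B, WDR72, LYZL4 and OR5F1. PIK3CD, a phosphoinositide 3-kinase subunit best known from leukocytes, stood at 47.6, 47.2 and 47.3 CPM at T0 and at 50.8, 57.7 and 56.2 CPM after 96 h (0.21, SE 0.05, adjusted p = 0.00682), with 6 of 6 guides positive. TMC2, a gene of inner ear hair cells, stood at 56.7, 57.1 and 57.4 CPM and then at 68.3, 63.6 and 65.7 CPM (0.21, SE 0.05, adjusted p = 0.00574). KIF5B, a heavy chain of the motor kinesin-1, went from 39.1, 42 and 45.7 CPM to 51.8, 48 and 48.9 CPM (0.23, SE 0.06, adjusted p = 0.00562). In each case the lowest Untreated library was above the highest T0 library. The largest summed gain among called genes, chosen after its value was seen, was TMSB4Y at 0.27.

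These gains rested on less than the losses. Only 3 of the 80 stayed called in all 6 fits with a library left out, against 243 of the 588 losses, and none of the 80 stayed called in every one of the 15 alternatives, against 81 losses. The highest adjusted p with a library left out was 0.0913 for PIK3CD (without KO Untreated replicate B), 0.0554 for TMC2 and 0.0865 for GNGT2 (without KO Untreated replicate A), and 0.122 for KIF5B (without KO T0 replicate A). It was 0.0656 for ROBO4 and 0.122 for OR51M1 (without KO Untreated replicate C), 0.118 for FGFBP2 (without KO T0 replicate C), 0.233 for LYZL4 (without KO Untreated replicate B), 0.194 for WDR72 (without KO T0 replicate B) and 0.157 for OR5F1 (without KO T0 replicate A). Of the 376 olfactory receptor genes, which encode odour receptors of nasal neurons, 7 were called higher and 0 lower, against 0.42% called higher over all genes. With non-targeting scaling 1 was called higher and 4 lower. The median over those receptor genes was 0.02. Over their single guides it was 0.03, below the 0.05 of the non-targeting guides.

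Genes called lower and genes called higher differed in their RNA level in the parent line, a readout from other libraries. Per length, the 565 lower genes found in the RNA table had a median of 50.3 TPM at T0, the 79 higher genes 0.593 TPM and the genes not called 6.17 TPM. Only 29 of the 565 lower genes (5.13%) were under 1 TPM, compared with 42 of the 79 higher genes (53.2%) and 34.3% of genes not called. Of the 2587 genes at 0 TPM, 7 (0.271%) were called lower and 23 (0.889%) higher, while of the 1821 genes above 100 TPM, 193 (10.6%) were called lower and 3 (0.165%) higher. From each of the 5 classes to the next, the share called lower was larger and the share called higher smaller. In the same classes of CPM the share called higher was 0.889%, 0.461%, 0.455%, 0.215% and 0.445%, so that this order did not hold. The RNA came from p53 WT cells, and the comparison is a description across genes, which are not independent replicates.

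**Figure D4:**
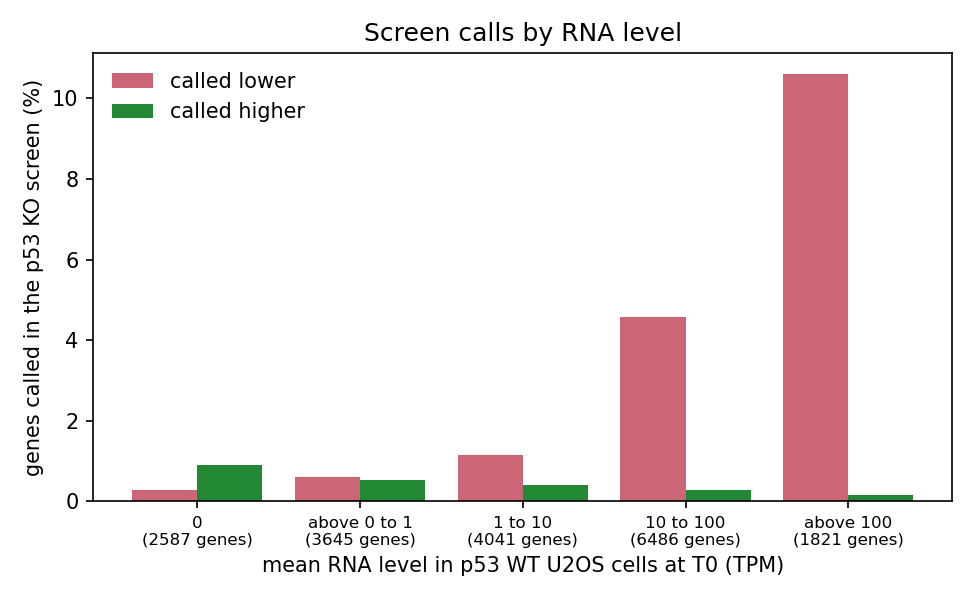
Percentage of genes called lower (red) and higher (green) in the p53 KO screen by class of mean RNA level in p53 WT cells at T0 (TPM, 2 libraries; genes per class in brackets). The share called lower runs from 0.271% at 0 TPM to 10.6% above 100 TPM, and the share called higher from 0.889% to 0.165%.

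Shares also varied with the starting abundance of the guides. In quartiles of mean guide CPM at T0, the share called lower was 4.2%, 3.13%, 2.88% and 2.14% from the least to the most abundant, and the share called higher was 0.315%, 0.546%, 0.294% and 0.525%. By chromosome, 45 of 784 genes on chromosome 16 (5.74%) and 23 of 554 on chromosome 15 (4.15%) were called lower, against 2 of 257 on chromosome 18 (0.778%) and 0 of 45 on chromosome Y. Chromosome Y had 2 of 45 genes (4.44%) called higher, against 0.42% over all genes. Among genes under 1 TPM, chromosome 15 had the highest share called lower, 6 of 155 (3.87%).

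Several of the 29 lower genes with RNA under 1 TPM belong to families of near-identical copies, a grouping made after their values were seen. The GOLGA6L family on chromosome 15 had 4 of 5 genes called lower (median −0.22) at a median of 0.0282 TPM. SPDYE had 2 of 8 called lower, TBC1D3 1 of 6 and the HIST2 histone cluster 5 of 11. The AGAP family had 6 of 10 called lower (median −0.26) and NPIP 3 of 7. However, their median RNA levels were 6.39 and 9.51 TPM, and of their called genes AGAP9 alone is among the 29. The 6 AGAP calls were AGAP4 to AGAP9, all on chromosome 10, each with 6 of 6 guides agreeing in sign. AGAP1, AGAP2, AGAP3 and AGAP11 were not called (−0.01 to 0.00), and the median of 6.39 TPM includes their RNA. SSX had 1 of 9 called lower, FOXD4L 0 of 7, GOLGA8 0 of 3, PTPN20 0 of 2 and the HIST1 cluster 2 of 55, against 3.09% over all genes. Families were taken by symbol, so the 9 SSX genes include SSX2IP on chromosome 1 (0.15, not called), while the others are on chromosome X. The SPATA31A copies had 1 of 7 called and a median of −0.13 at 0 TPM, with all members between −0.18 and −0.06. AGAP9, at 0.523 TPM, fell by 0.40 with 6 of 6 guides negative (adjusted p = 2.61e-07). Guides to such families can match several places in the genome, and reads of near-identical transcripts can be split between copies. How many places each guide matched was not tested, since the guide sequences were not used here. Symbols that join neighbouring genes, such as PPAN-P2RY11 (−0.37) and RBM14-RBM4 (−0.26), were also among the 29 and may share guides and reads with their parts. HYPK (−0.47), at 0.192 TPM, was among the 29 as well.

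The losses resembled those in p53 WT cells grown for the same 96 h. Of the 588 genes called lower in p53 KO cells, 570 were negative in WT and 416 were called lower there, which is 70.7% of the KO list and 40.4% of the 1029 genes called lower in WT. Across all genes the log2 fold changes of the genotypes had a Pearson r of 0.53 and a Spearman rho of 0.35, given as a description because genes are not independent and the guide library is shared. Over the 588 genes the median was −0.24 in WT as well, and the median difference KO minus WT was −0.01. The gains were shared less: 5 of the 80 were also called higher in WT, where 215 genes were, and 56 of the 80 were positive there.

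The difference between the genotypes was tested as an interaction in the same fit, and 1 gene of 19044 (0.00525%) passed, with 1462 at an unadjusted p under 0.05. That gene was GFM1, the elongation factor G of mitochondrial translation. In KO cells it stood at 61.2, 57.9 and 61.1 CPM at T0 and at 51.3, 53.1 and 56.6 CPM after 96 h (−0.16, SE 0.05, adjusted p = 0.044). In WT cells it stood at 60, 63.1 and 63.4 CPM and then at 43.1, 42.9 and 42.6 CPM (−0.54, SE 0.05, adjusted p = 2.97e-15). The summed GFM1 count was thus lower after 96 h in every library of both genotypes, although 2 of its 6 guides were at 0.04 and 0.06 in KO, and the loss was smaller in KO by 0.38 (SE 0.07, adjusted p = 0.00761), in the same direction for 6 of 6 guides. By limma on the mean over guides the difference was 0.36 (adjusted p = 0.071). With 1 library left out, the adjusted p of this difference was 0.11 without KO T0 replicate B, 0.0504 without KO Untreated replicate C, 0.0782 without WT T0 replicate B and 0.0872 without WT T0 replicate C. The KO fall by itself had an adjusted p of 0.171 without KO T0 replicate A, 0.169 without KO T0 replicate C, 0.202 without KO Untreated replicate A and 0.128 without KO Untreated replicate B.

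Other named genes had different values in the genotypes without passing this test. IARS2, the mitochondrial isoleucyl-tRNA synthetase, was at −0.32 in KO and −0.72 in WT (difference 0.40, SE 0.10, adjusted p = 0.172). EIF6 was at −0.43 in KO and −0.08 in WT (difference −0.34, SE 0.09, adjusted p = 0.215). PIK3CD was at 0.21 in KO and −0.08 in WT (difference 0.29, SE 0.08, adjusted p = 0.172). PPM1D, which dampens p53, was at 0.05 in KO and fell by 0.21 in WT, where it was called (adjusted p = 0.0161), yet the difference of 0.26 (SE 0.08) had an adjusted p of 0.357. By list, the median of KO minus WT was 0.14 for the mitochondrial tRNA synthetases, 0.09 for the ATP synthase and 0.08 for the large subunit of the mitochondrial ribosome, against 0.00 over all genes, and no member of these lists passed the test of the difference.

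**Figure D5:**
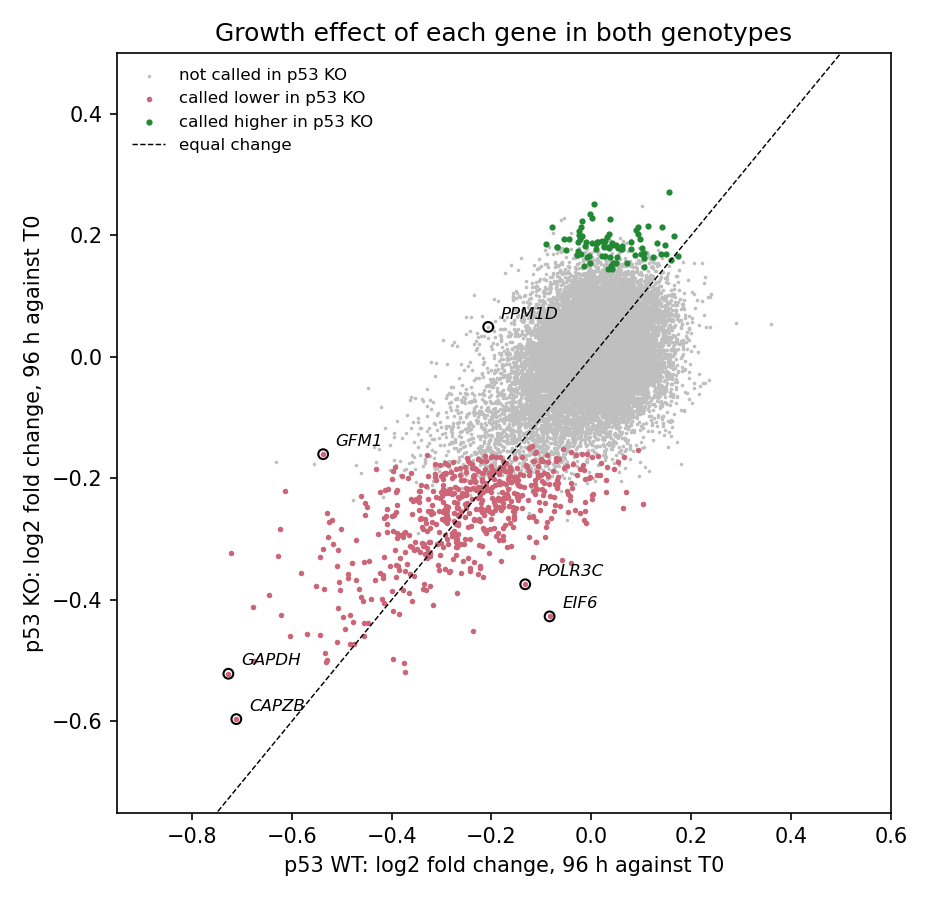
Log2 fold change of each gene over 96 h in p53 WT cells (x axis) and p53 KO cells (y axis), with genes called lower (red) or higher (green) in p53 KO; 2 genes with very uneven counts between libraries are not drawn. Most red points lie in the lower left around the dashed line of equal change, and GFM1 (−0.54 in WT, −0.16 in KO) lies above it.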

How the data were processed

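The authors deposited raw counts per guide and library for the screen and raw counts per gene symbol for the RNA, per the file headers. Per the submitters' processing notes, Bowtie2 and DESeq2 were used for screen data, and build hg19 and DESeq2 for RNA. The sources used here give no versions, guide library or guide filter. No listed guide had a mean below 62.6 counts over the 18 libraries.

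Counts of a gene's guides were summed, scaled by TMM and fitted with edgeR 4.0.16 (R 4.3.3) in a quasi-likelihood model over all 18 libraries, with 12 residual degrees of freedom and Benjamini-Hochberg adjustment over all genes. The low-count filter (filterByExpr) removed none. The fit gave a median standard error of 0.05 on the log2 scale. CPM values are scaled to the TMM-adjusted library size. Non-targeting guides took no part in the gene test. The test was checked on simulated data. Alternatives used limma 3.58.1 and DESeq2 1.42.0, other scalings, a replicate block and left-out libraries.

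Named genes were the 15 lowest and 10 highest by mean guide log2 fold change among called genes without overlap between states and with at least 2 of every 3 guides agreeing, the 3 smallest p-values per list, and MDM2, MDM4, CDKN1A, PPM1D, MYC and TOP2A. Members and the 35 lists were chosen with earlier results of these data known. RNA levels were planned in CPM; TPM, from the length column, was used after the data were seen. RNA was matched by symbol for 18580 genes and chromosomes from RefSeq GRCh38.p14 for 18832; 51 RNA symbols turned into currency amounts were restored by rule. Some named items are not reported here, and guide sequences were not used here. Etoposide libraries entered the fit only to estimate spread.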

Additional observations from a re-analysis of the deposited data

Results flagged for a closer look

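GFM1, the mitochondrial elongation factor, was the 1 gene whose change over 96 h differed between the genotypes by edgeR's interaction test. Its loss was smaller in p53 KO than in p53 WT cells by 0.38 on the log2 scale (SE 0.07, adjusted p = 0.00761), with 6 of 6 guides in that direction. By limma on the mean over guides the adjusted p was 0.071. It was 0.11 without KO T0 replicate B, 0.0504 without KO Untreated replicate C, 0.0782 without WT T0 replicate B and 0.0872 without WT T0 replicate C. At guide level 1 guide passed the same test. This guide to HMGA2, a chromatin protein, rose by 0.88 in KO (adjusted p = 3.74e-06) and was at −0.23 in WT (adjusted p = 0.52), a difference of 1.11 (SE 0.19, adjusted p = 0.00782). HMGA2 as a gene was at 0.16 in KO and was not called (adjusted p = 0.0696), with 3 of its 6 guides positive.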

How the results depend on the processing

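Under the 15 alternatives, 81 of the 668 called genes kept their call throughout, and 246 kept it in all 6 fits with a library left out. The count of called genes was 437 to 573 with 1 library left out, 1583 with non-targeting scaling and 146 when limma tested the median of a gene's guides; that median ignores a minority of strong guides. The count of called guides was 338 to 565 with 1 library left out and 1209 with non-targeting scaling. The count for KO minus WT was 0 to 4 with 1 library left out, 10 with non-targeting scaling, 30 with DESeq2, 3 with the replicate block, 6, without GFM1, with limma on the mean over guides and 2 without 3 guides of very high count, the last an alternative chosen after seeing the data. Of 127 named genes, 105 were called and 26 of these kept the call under every alternative. TIMM10 alone changed sign, to 0.0303 under the guide median.

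The labels do not say whether a letter pairs a T0 library with an Untreated library. Deviations of same-lettered KO libraries correlated at 0.10, 0.06 and 0.17 for A, B and C. Those of WT libraries correlated at 0.027, 0.017 and −0.004. A replicate block gave 737 called genes and 808 called guides, with all 668 genes and 666 guides of the unblocked fit among them, and it changed no call of a named gene. Of 525 list counts under the alternatives, 117 moved by over 1.5 times, 81 of them to fewer genes. RNA classes in CPM gave the same order for losses, from 0.271% to 8.33%, but not for gains. In the main fit falls smaller than about 0.15 were not called.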
